A study of Rattus norvegicus with 8 samples.

Results

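The genes described are 10 genes known for high expression in the choroid plexus: Sostdc1, Ttr, Kl, Folr1, Prlr, Igf2, Igfbp2, Clic6, Enpp2 and Ace. They were followed on 8 arrays of rat hippocampal RNA. The genes were chosen by their measured values: Sostdc1 and related genes stood out on 1 array, that of control replicate 4. The array carried 14 probes for them, with 11 different sequences, among 15207 probes for 11569 named genes. For that reason their values on control 4 are given as a description with no test. PNFLX was tested against control on the other 7 arrays. Those 7 were the level from which control 4 stood out, and earlier results of these data were known. The test is therefore not wholly independent of the choice.

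The samples were total RNA of whole hippocampi from rats of 2 months of age. The 4 control samples came from rats that had received vehicle, a 5% sucrose solution, from postnatal day 2 to 21. The 4 PNFLX samples came from rats given fluoxetine, an inhibitor of serotonin reuptake used as an antidepressant, at 10 mg/kg over the same days. The end day in the sample descriptions climbs from 21 to 28 from the first sample to the last; the day 21 of the protocol was used. Strain and sex are not given in the sources used here, and no label says whether a sample was 1 animal or a pool, so p-values measure only the spread between these samples.

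The choroid plexus is a folded sheet of epithelium around leaky capillaries that hangs in the brain ventricles and secretes cerebrospinal fluid. Its epithelial cells make large amounts of carrier and growth factor proteins for that fluid, above all transthyretin, the product of Ttr, which carries thyroid hormone. The choroid plexus of the lateral ventricle is attached along the fimbria, the fibre tract at the edge of the hippocampus, so the 2 tissues lie side by side. In RNA of a whole tissue, fewer cells of a type and less RNA per cell cannot be told apart.

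Values are log2 of the processed spot signal relative to the 75th percentile of the same array, so 0 is that percentile's own level. That percentile lay between 654 signal units on control 4 and 941 on PNFLX 2. Signal exceeded background clearly (the scanner software's flag "well above background") for 70.5% to 77.9% of probes, depending on the array. Array pairs correlated at 0.95 to 0.98. The number of arrays, 4 a group, limits the precision. The slide, 1 for all arrays, held the control arrays in 1 row and the PNFLX arrays in another, and its rows and the groups cannot be told apart. Of the listed hippocampal neuron genes on the array, 14 of 15 were measured well enough to pass the filter used here (that flag on 4 or more of the 8 arrays).

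Sostdc1 and Kl were each spotted in duplicate at distant positions with 1 sequence, and Ace had a duplicated sequence and another, so the same sequence could be read independently on each array. The sequences below, 5′ to 3′ in lower case, identify what was measured: the first 30 of the 60 bases of the Sostdc1 and Kl probes, then whole probes of genes whose levels on control 4 or PNFLX 1 are described. The Sostdc1 probe is at rn4 chr6:55073434-55073493 and the Kl probe at chr12:3732725-3732784. Folr1 is at chr1:159395122-159395181, Igfbp2 at chr9:72114139-72114198, and the duplicated Ace probe at chr10:95395122-95395181. The Enpp2 probe maps to chr7:91330659-91336052, a span longer than the probe. The plus strand is given for Sostdc1, Igfbp2 and Ace, and the minus strand for Kl, Folr1 and Enpp2. Exon and untranslated region annotation on rn4 was not used here.
Sostdc1 (first 30 bases): attacacggttcctcatacactttgtcatt
Kl (first 30 bases): cttctttggaagttacagtcactcagttgg
Folr1: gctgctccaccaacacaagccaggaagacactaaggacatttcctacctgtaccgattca
Igfbp2: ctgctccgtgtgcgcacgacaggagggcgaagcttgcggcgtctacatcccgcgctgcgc
Enpp2: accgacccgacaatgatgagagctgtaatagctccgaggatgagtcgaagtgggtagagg
Ace (duplicated): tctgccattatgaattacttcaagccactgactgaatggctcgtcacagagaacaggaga

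Control 4 was the highest of the 8 arrays for 11 of the 14 probes, of 7 genes: Sostdc1, Ttr, Kl, Folr1, Clic6, Enpp2 and Ace. PNFLX 1 was highest for Igf2 and Igfbp2, and PNFLX 3 for Prlr. In all, 10 probes of 7 genes passed the filter. Kl, Prlr and Clic6 did not, with 4 probes between them. Control 4 lay at least 2-fold above the median of the other 7 arrays for 8 of these 10 probes, against 1.59% of all probes. As the choice of the genes used this array, nothing is read from that count. The median difference of all 14 probes on control 4 was 1.81 log2 units. It was 0.98 with another background correction (normexp), which brought the Kl spots to 1.04 and 0.97, Clic6 to 0.99, the Ace probes to 0.60 to 0.98 and Igfbp2 to -0.12, and left the Sostdc1 spots at 4.63 and 4.39.

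**Figure D1:**
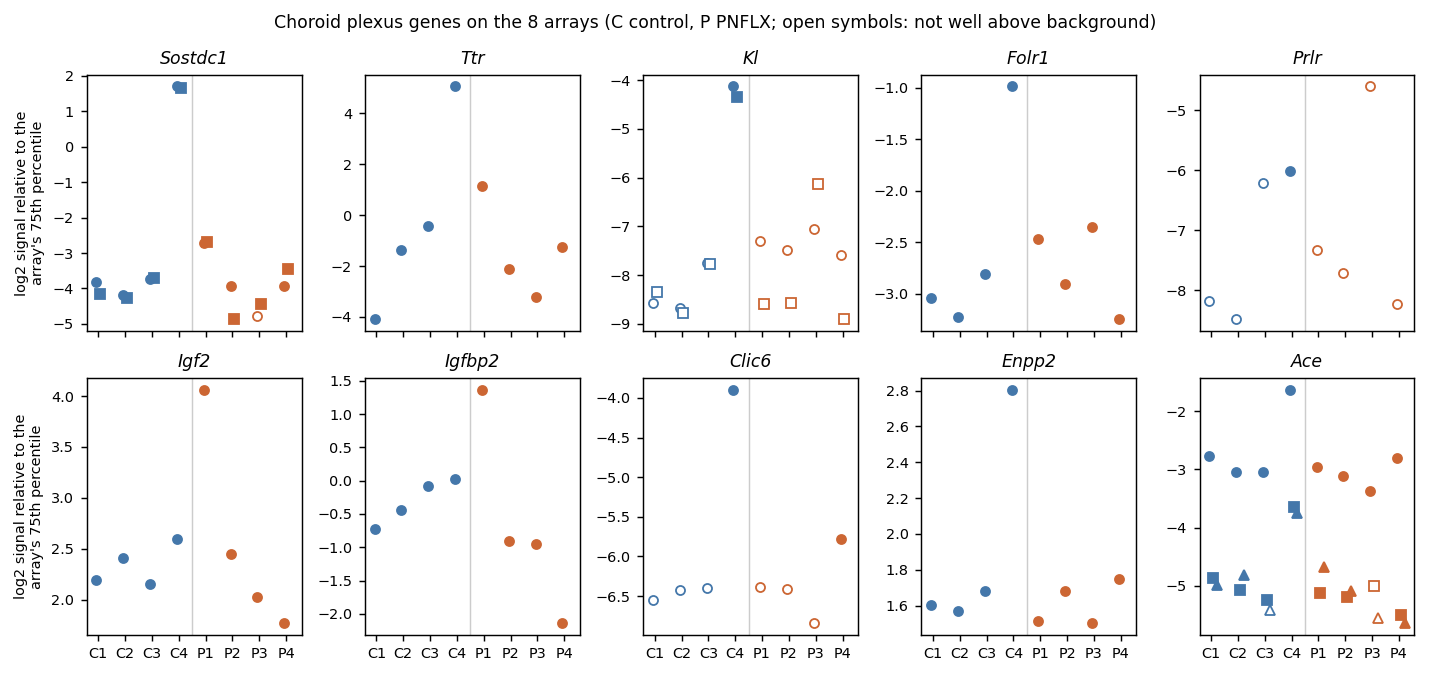
Each panel shows 1 gene, with the log2 signal relative to the array's 75th percentile on the y axis (scales differ between panels) and the 4 control (C, blue) and 4 PNFLX (P, orange) arrays on the x axis; symbol shapes are different probes of a gene and open symbols are spots not well above background. Control 4 stands above the other 7 arrays for Sostdc1, Ttr, Kl, Folr1, Clic6, Enpp2 and Ace, while Igf2 and Igfbp2 are highest on PNFLX 1.

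Ttr had the largest difference on control 4 of all 11521 probes ranked. On controls 1 to 4 its log2 level was -4.10, -1.35, -0.44 and 5.07, and on PNFLX 1 to 4 it was 1.14, -2.11, -3.22 and -1.25. Control 4 was thus 6.42 log2 units (85.9-fold) above the median of the other 7 arrays, and PNFLX 1 was second, 3.94 log2 units below control 4. The other 7 arrays themselves spread widely, from -4.10 to 1.14, with an SD of 1.74, against a median SD of 0.34 for all probes that passed. The Ttr probe maps to rn4 chr18:12434403-12434462, plus strand.

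Sostdc1 encodes a secreted antagonist of BMP and Wnt signalling. Its brighter spot, in row 164 of 192, had log2 levels of -3.82, -4.18, -3.74 and 1.71 on controls 1 to 4 and of -2.71, -3.92, -4.76 and -3.92 on PNFLX 1 to 4. The spot in row 111 had -4.16, -4.28, -3.69 and 1.65 on the controls and -2.69, -4.87, -4.43 and -3.44 on PNFLX 1 to 4. Both put control 4 far above the median of the others, by 5.63 log2 units (49.5-fold) and 5.82 log2 units (56.4-fold), the third and second ranked differences of that array. Both also put PNFLX 1 next, 4.42 and 4.35 log2 units lower. These spots, 53 rows apart, differed by 0.06 on control 4, while the median absolute difference between spots of 1 sequence was 0.17 over the 1488 such pairs that passed the filter.

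Kl encodes klotho, a membrane and circulating protein that acts as an FGF23 coreceptor in the kidney and is also made by choroid plexus epithelium. Both of its spots were well above background on control 4 alone. There they read -4.12 (row 100) and -4.36 (row 60), a difference of 0.23 between duplicates. On the other 7 arrays, where neither spot was well above background, they read from -8.67 to -7.05 and from -8.91 to -6.13. With each dim spot raised to its array's lowest value counted as well above background, control 4 was at least 4.59-fold and at least 3.91-fold above the median of the other 7 arrays. PNFLX 3, with the highest such limit (-4.77), was the next highest array for both spots. For the spot in row 100 the 4 PNFLX values (-7.30, -7.48, -7.05 and -7.59) all lay above those of controls 1 to 3 (-8.58, -8.67 and -7.74), but none of the 7 was well above background, and the spot in row 60 overlapped between groups.

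Folr1 encodes folate receptor alpha, through which the choroid plexus passes folate to the cerebrospinal fluid. Its log2 levels were -3.04, -3.23, -2.81 and -0.98 on controls 1 to 4 and -2.47, -2.91, -2.35 and -3.25 on PNFLX 1 to 4. Control 4 was 1.92 log2 units (3.79-fold) above the median of the others, whose SD was 0.35, and PNFLX 3 came next.

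Prlr, the prolactin receptor gene, is abundant in choroid plexus, and was at the edge of detection here. Its spot (rn4 chr2:59605899-59606403, plus strand) was well above background on control 4 only (-6.02) although PNFLX 3 had the highest value (-4.60). The remaining 6 arrays lay between -8.49 and -6.22. The lowest value counted as well above background was itself higher on PNFLX 3 (-4.77) than on the other arrays (-6.60 to -5.49), so no order of the groups can be read for this gene.

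Enpp2 encodes autotaxin, a secreted enzyme that makes lysophosphatidic acid, and is expressed by oligodendrocytes as well as by choroid plexus. The log2 levels were 1.61, 1.57, 1.68 and 2.80 on controls 1 to 4 and 1.51, 1.68, 1.503 and 1.75 on PNFLX 1 to 4. Control 4 stood 1.20 log2 units (2.29-fold) above a median around which the other 7 had an SD of 0.09, the smallest of the 14 probes. The listed oligodendrocyte and fimbria genes were measured for 13 of 16, and 0 of the 13 were 2-fold up on control 4. Of all 9440 genes and unnamed probes that passed the filter, 144 were. The median difference of the 13 there was 0.15, against 0.05 over all. Mobp, the most raised of the 13, was 0.67 log2 units above the other arrays, and its part in the Enpp2 value was not tested.

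Ace encodes angiotensin-converting enzyme, a peptidase of endothelium and choroid plexus. Its brightest probe (row 137, with a sequence of its own, rn4 chr10:95396117-95396176) had log2 levels of -2.77, -3.04, -3.04 and -1.63 on controls 1 to 4 and -2.96, -3.12, -3.37 and -2.81 on PNFLX 1 to 4. The duplicated sequence gave control 4 values of -3.64 (row 113) and -3.74 (row 20), with the other arrays at -5.50 to -4.86 and at -5.65 to -4.69. All 3 probes put control 4 highest. It lay 1.41 and 1.49 log2 units (2.66- and 2.81-fold) above the median of the other arrays in rows 137 and 113, and at least 2.38-fold above it in row 20, where control 3 and PNFLX 3 were not well above background. The margin over the next highest array was 1.14, 1.22 and 0.95 log2 units. Of the endothelial and mural cell genes, 19 of 23 listed passed the filter and 0 were 2-fold up on control 4, with a median difference of 0.04. Over all 9440 genes and unnamed probes 144 were 2-fold up there.

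Clic6, a chloride intracellular channel family gene of choroid plexus and other secretory epithelia, was well above background only on control 4 (-3.90) and PNFLX 4 (-5.78). The other 6 arrays lay between -6.84 and -6.38. The probe maps to rn4 chr11:32615187-32615246, plus strand. Control 4 was at least 5.16-fold above the median of the other 7 arrays, and 1.88 log2 units above PNFLX 4, the next highest.

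Igf2, insulin-like growth factor 2, and Igfbp2, which binds it, are secreted by choroid plexus and also by the meninges. They did not follow control 4. Igf2 had log2 levels of 2.19, 2.41, 2.15 and 2.60 on controls 1 to 4 and 4.06, 2.45, 2.03 and 1.77 on PNFLX 1 to 4. Igfbp2 had -0.73, -0.44, -0.08 and 0.03 on the controls and 1.36, -0.90, -0.96 and -2.14 on PNFLX 1 to 4. PNFLX 1 was the highest array for both, by 1.87 log2 units (3.67-fold) for Igf2 and 2.09 (4.26-fold) for Igfbp2 over the median of the other arrays, and PNFLX 4 was the lowest for both. Control 4 was the second highest array, with 0.41 and 0.76 log2 units over the median of the other arrays. The Igf2 probe maps to rn4 chr1:203094707-203094766, minus strand.

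PNFLX 1 was raised for part of the other genes too. Leaving control 4 aside, it was the highest of the 7 arrays for 6 of the 10 probes that passed, against 14.6% of all probes; duplicate probes are counted here, so these are not 10 independent measures. Ttr on PNFLX 1 was 2.49 log2 units (5.61-fold) above the median of the other 7 arrays, and the Sostdc1 spots were 1.21 and 1.47 units above. Folr1 was 0.44 above, while Enpp2 (-0.17) and Ace (0.08, -0.06 and 0.41) stayed close to the other arrays. The 2 high arrays thus differed in which genes were high: Enpp2, Ace and Folr1 stood out on control 4, and Igf2 and Igfbp2 on PNFLX 1, while Ttr and Sostdc1 were high on both.

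**Figure D2:**
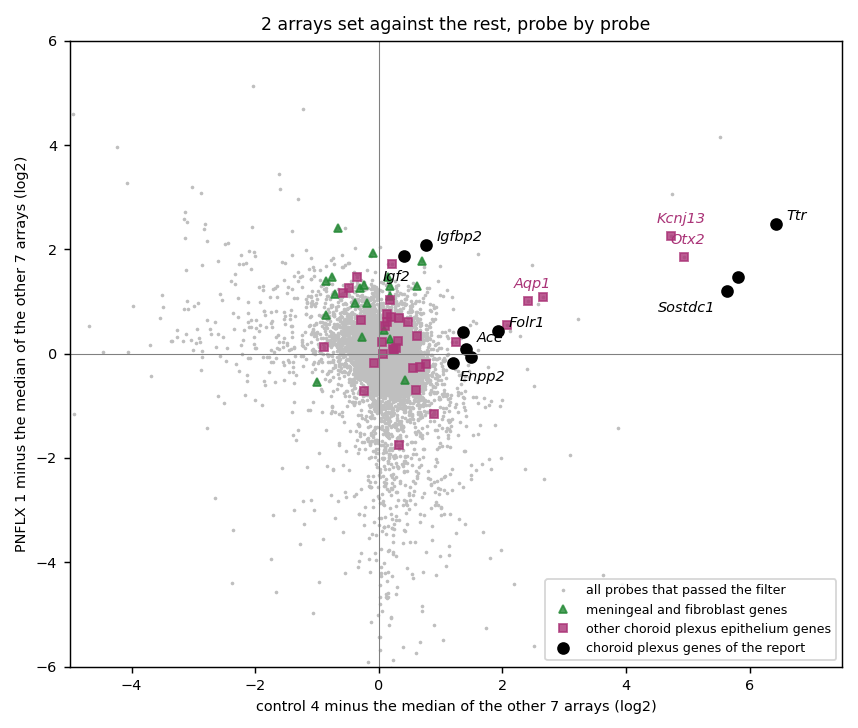
Each point is a probe that passed the filter, placed by its log2 difference from the median of the other 7 arrays on control 4 (x axis) and on PNFLX 1 (y axis); black circles are the choroid plexus genes described, purple squares other choroid plexus epithelium genes, green triangles meningeal and fibroblast genes and grey dots all other probes, of which 16 lie outside the axes. Ttr (6.42 and 2.49), both Sostdc1 spots, Otx2 and Kcnj13 lie far to the right and above 0, while Igf2 and Igfbp2 lie high with small values on the x axis.

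How far the 7 genes that passed varied together depended on control 4. The median Pearson r of their 21 pairs was 0.74 over 8 arrays, 0.15 over the 7 without control 4 and 0.02 over the 6 without control 4 and PNFLX 1. Sostdc1 and Ttr correlated at 0.91 over 8 arrays (Spearman rho 0.74), 0.71 over 7 (rho 0.61) and 0.34 over 6 (rho 0.37), so that their relation rested on those 2 arrays. Igf2 and Igfbp2 had 0.88 over 8 arrays, 0.89 over 7 and 0.68 over 6, the least changed of the strong pairs. These are descriptions of few points that share 1 slide, with no test.

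The other genes of choroid plexus epithelium were taken from a list of 54, of which 45 were on the array and 34 passed the filter. Of the 34, 6 were at least 2-fold up on control 4, 27 lay above the median of the other arrays there and the median difference was 0.26. For all 9440 genes and unnamed probes that passed, 144 were 2-fold up, 5495 lay above that median and the median difference was 0.05. Otx2, the transcription factor gene that specifies choroid plexus epithelium, read -7.00, -4.95, -5.51 and -0.56 on controls 1 to 4 and -3.65, -5.62, -7.05 and -4.04 on PNFLX 1 to 4, and was well above background on 5 arrays. Control 4 was at least 21.02-fold above the median of the others. Kcnj13, the gene of the apical potassium channel Kir7.1, read -6.38, -5.25, -3.46 and 0.22 on the controls and -2.26, -4.04, -5.39 and -4.52 on PNFLX 1 to 4, a 26.6-fold difference of control 4 from that median. For both genes PNFLX 1 was the second highest array, as for Ttr and Sostdc1.

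Aqp1, the water channel gene of the apical membrane, was 5.33-fold up on control 4, Steap1, a metalloreductase gene, 4.21-fold, and Slco1a5, an organic anion transporter gene, 2.37-fold. Col8a1, a collagen gene, was at least 5.95-fold up on control 4 but still higher on PNFLX 3 (-2.67 against -2.93). The rest of the 34 were less than 2-fold up there, among them the keratin gene Krt18 (0.90 log2 units) and the chloride transporter gene Slc12a2 (0.24), named after their values were seen. On PNFLX 1, 9 of the 34 were at least 2-fold up, against 232 of all 9440.

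Genes of neighbouring tissues and other cell types were read on the same arrays. With 144 of all 9440 genes and unnamed probes 2-fold up on control 4, short lists hold few or none at that share. Of 10 ependymal and motile cilia genes that passed, of 25 listed, 0 were 2-fold up on control 4. There 6 lay above the median of the other arrays, against 5495 of all 9440. The summed relative signal of these genes ran from 2.83 to 4.23 on the controls and from 3.191 to 4.22 on PNFLX, with control 4 at 3.185. Dynlrb2, a cilia dynein gene, was lower on control 4 by 1.03 log2 units, while Dnah9 and Tekt4 were 0.36 and 0.34 above.

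Meningeal and fibroblast genes separated the 2 high arrays. Of 20 measured, of 24 listed, 0 were 2-fold up on control 4, where the median difference was -0.22. On PNFLX 1, 12 were at least 2-fold up, 17 of the 20 had their highest value there, and the median difference was 1.21. Over all 9440 genes and unnamed probes, 232 were 2-fold up on PNFLX 1 and 1257 highest there, with a median difference of -0.03. The count of 12 ran from 8 to 14 with other processing. Their summed relative signal was 114 on PNFLX 1, with 51.1 to 60.2 on the other PNFLX arrays and 48.2 to 70.7 on the controls, control 4 at 51.3. The part of these genes in the Igf2 and Igfbp2 values of PNFLX 1 was not tested. Slc6a13, a GABA transporter gene of the meninges (spot row 4), was 5.32-fold up on PNFLX 1. Ogn, the osteoglycin gene, was 3.81-fold up there and Col1a1, of type I collagen (spot row 188), 3.45-fold. These 3 were named after their values were seen. Rows 4 and 188 are among the first and last 5 spot rows. By the rule for control 4, Aldh1a2, of retinoic acid synthesis, had -1.001, Bgn, the biglycan gene, -0.86 and Col1a2 -0.85 log2 units there.

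The lists of tissue around the hippocampus had small median differences on control 4. Of the 10 striatum and septum genes and the 10 thalamus and habenula genes that passed, 0 were 2-fold up. Their medians were 0.17 and 0.16, against 0.05 over all 9440. Above the median of the other arrays lay 8 and 7 of the 10, against 5495 of all 9440. In the thalamus and habenula list the largest differences on control 4 went in both directions, with Tnnt1 at -0.74 log2 units and Gbx2 at 0.71. Of the 7 neocortex and subiculum genes, 1 was 2-fold up there: Etv1, with its spot in row 192, the last of the array. It read -1.73, -1.89, -1.73 and -0.74 on controls 1 to 4 and -3.83, -5.503, -4.07 and -5.998 on PNFLX 1 to 4, so its 8.53-fold difference from the median of the other 7 arrays goes with a gap between all 4 controls and all 4 PNFLX arrays. The 14 hippocampal neuron genes had a median of 0.01 and 0 were 2-fold up, with Prox1, a marker of granule cells, at -0.85 from a spot in row 3, well above background on 4 arrays.

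**Figure D3:**
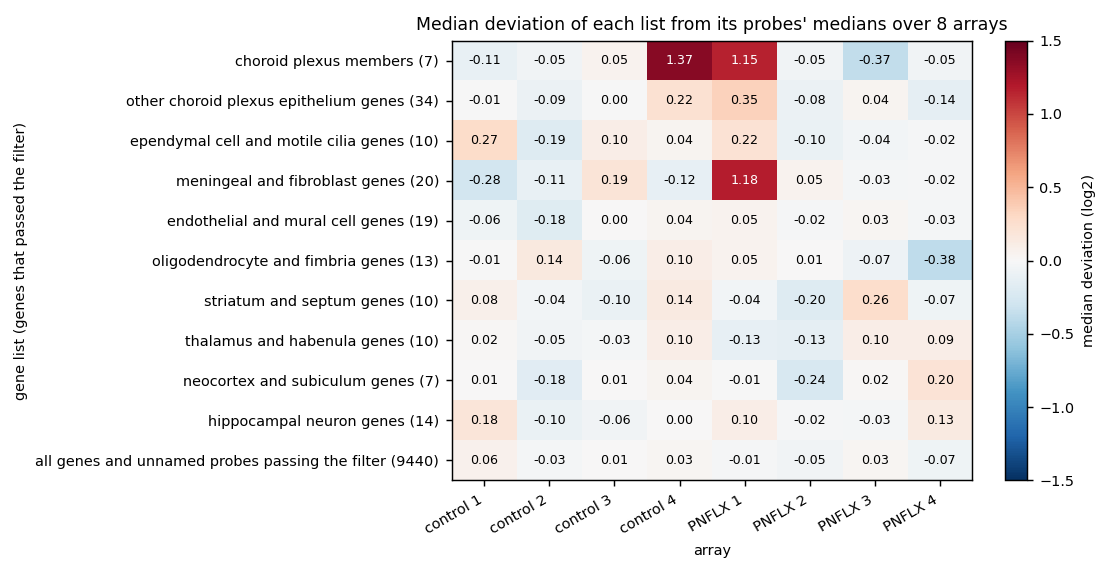
Each cell gives the median over a list's genes of the log2 deviation from the probe's own median over the 8 arrays, with arrays on the x axis and gene lists (number of genes that passed the filter) on the y axis; red is above and blue below 0. The choroid plexus members are high on control 4 (1.37) and PNFLX 1 (1.15), and the meningeal and fibroblast genes on PNFLX 1 (1.18).

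PNFLX was then compared with control on the 7 arrays without control 4, with limma's moderated test over 11598 probes and Benjamini-Hochberg adjustment. None of the 10 probes that passed was called: 0 reached an adjusted p of 0.05 and 0 an unadjusted p of 0.05, with 0.285% and 10.7% of all probes doing so. Higher in PNFLX were 5 probes and lower were 5, and 0 had groups that did not overlap, against 14.8% of all probes. Adjusted p-values ran from 0.702 to 0.988.

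The precision of these differences varied greatly between the genes. For Ttr the difference of PNFLX minus control was 0.61 log2 units (SE 1.19, 95% interval -2.18 to 3.39, limma adjusted p = 0.874), so changes of over 4-fold in either direction lay within the interval. The Sostdc1 spots gave 0.08 (SE 0.44, interval -0.95 to 1.12) and 0.18 (SE 0.51, interval -1.01 to 1.38). Igf2 gave 0.33 (SE 0.52, interval -0.89 to 1.55) and Igfbp2 -0.24 (SE 0.74, interval -1.97 to 1.49). For both growth factor genes the 4 PNFLX arrays spanned the 3 controls, with PNFLX 1 above and PNFLX 4 below all of them.

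For Enpp2 and Ace the intervals were narrower. The Enpp2 difference was -0.01 (SE 0.14, interval -0.34 to 0.32, limma adjusted p = 0.988). The 3 Ace probes gave -0.11 (SE 0.18, interval -0.54 to 0.31), -0.15 (SE 0.18, interval -0.57 to 0.27) and -0.17 (SE 0.28, interval -0.82 to 0.48). With normexp background correction the Ace probes, in the same order, gave -0.75 (SE 0.55), -1.12 (SE 0.69) and -1.15 (SE 0.70). All 3 lie outside the intervals of their own probes. Igf2 gave 0.996 (SE 0.58) with that correction, and none of these probes was called. Folr1 gave 0.28 (SE 0.25, interval -0.31 to 0.87, limma adjusted p = 0.702).

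With control 4 included, the same probes gave another picture in their means: 9 of 10 were lower in PNFLX. The Sostdc1 spots had differences of -1.32 (SE 1.25) and -1.24 (SE 1.29), Ttr -1.15 (SE 1.81) and Folr1 -0.23 (SE 0.48), all of which were above 0 without that array. The other genes moved less, with Enpp2 at -0.30 and the Ace probes at -0.44 to -0.51. Igf2 was the only probe above 0, at 0.24. As control 4 chose the genes, no test is given for these values.

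**Figure D4:**
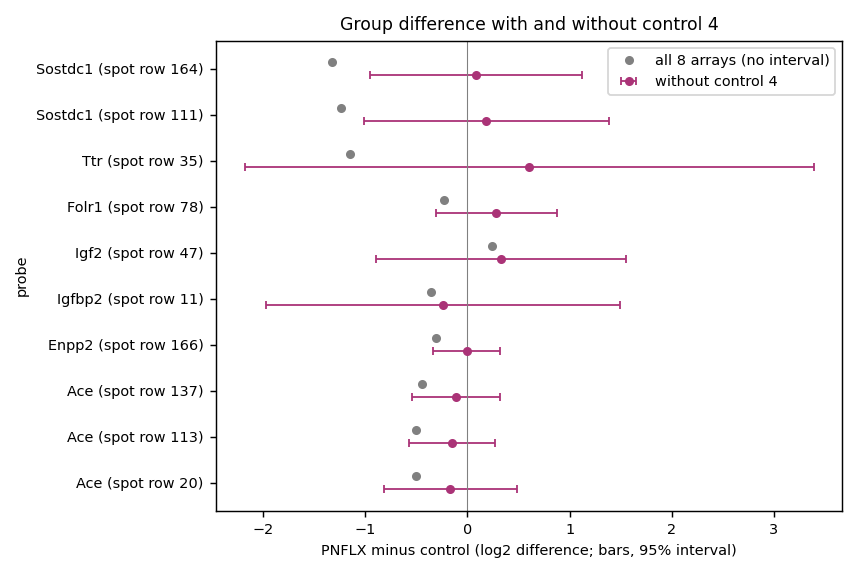
Points are the log2 difference of PNFLX minus control for each choroid plexus probe that passed the filter, for all 8 arrays (grey, no interval) and for the 7 arrays without control 4 (purple, bars are 95% intervals from limma). Sostdc1, Ttr and Folr1 lie below 0 with control 4 and above 0 without it, and the interval of Ttr is the widest.

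Of the 34 other choroid plexus epithelium genes, 0 reached an adjusted p of 0.05 in limma on the 7 arrays and 4 an unadjusted p of 0.05. Among all 9440 genes and unnamed probes 21 and 1018 did. Of the 34, 23 were higher in PNFLX and 11 lower, with a median difference of 0.14, while over all 4388 were higher and 5051 lower, with a median of -0.03. With control 4 included 1 of the 34 was called, against 54 of all 9440 genes and unnamed probes. It was the claudin gene Cldn3 (1.08, SE 0.16, limma adjusted p = 0.0277), named after its values were seen. Without control 4 it had 1.13 (SE 0.18, limma adjusted p = 0.0841). The Cldn3 spot lay in row 3. Without the first and last 5 spot rows, 0 of all probes were called with or without control 4. Otx2 had 0.73 (SE 0.88), Kcnj13 0.98 (SE 0.88) and Aqp1 0.35 (SE 0.33).

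Genes whose values over the arrays were most like the brighter Sostdc1 spot were sought among 9166. Over the 8 arrays the 10 highest Pearson correlations ran from 0.88 to 0.96. Steap1 (0.96), Slco1a5 (0.94), Otx2 (0.89), Aqp1 (0.89) and Kcnj13 (0.89), which are 5 of these 10, were on the list of choroid plexus epithelium genes. The others were Mdk (0.95), the gene of the growth factor midkine, Spag8 (0.94), Glycam1 (0.90), Rhog (0.90) and Nudt7 (0.88). Of these Glycam1 was 2.49 log2 units up on control 4, and Mdk, Spag8, Rhog and Nudt7 were 0.80, 0.59, 0.43 and 0.59 up.

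Without control 4 the order was another one. The 5 genes most like Sostdc1 over 7 arrays, of 9186 compared, were Cd46 (0.96), a complement regulator gene, Fbp1 (0.95), of gluconeogenesis, Kcnj12 (0.94), Gprc5c (0.94) and Lgals1 (0.93), the galectin-1 gene. On control 4 they differed from the other arrays by between -0.28 and 0.22 log2 units. Each of these correlations rests on 7 or 8 arrays, of which 1 or 2 carry most of the spread of Sostdc1.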

How the data were processed

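RNA of 4 control and 4 PNFLX hippocampal samples was labelled with 1 dye (Cy3) and read on custom arrays, per the labels' protocols. Groups and replicate numbers came from the source names. The intensity values (processed signal) were made with Agilent Feature Extraction 10.5.1.1, per the file headers, and not normalized between arrays. A log2 table that the authors deposited matched the values below, centred on each probe's median, within 0.00241.

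Here each array's 75th percentile over 15207 non-control probes was subtracted from log2 of the signal; 521 outlier-flagged spots were left out, and 11600 probes flagged as well above background on 4 or more of the 8 arrays were kept. The test of the group difference was limma 3.58.1 (R 4.3.3), with a threshold of 0.05 on p-values adjusted over all probes. Bounds use each array's lowest signal among probes well above background. Where a gene of a list or of the likeness search had several probes, the brightest was taken. A RefSeq gene table (GRCr8) named 14156 probes; the files' CLIC6 was read as Clic6. The members and gene lists were chosen with earlier results of these data known. Genes named were all members with every probe, the 6 other choroid plexus genes and up to 3 of every other list with the largest absolute difference on control 4, and the 10 and 5 most correlated with Sostdc1; exceptions are marked. The fit was tested on simulated data: for the 7 arrays, 33% of probes changed 2-fold and 68.9% of those changed 4-fold were called, with 3 unchanged probes.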

Additional observations from a re-analysis of the deposited data

Results flagged for a closer look

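Within a group of 4 arrays, the gap of the highest or lowest array to its nearest neighbour was set against the group's whole range (Dixon's ratio, critical value 0.829). Of 28 groups of the 14 probes, 5 passed, and chance passes about 5% of groups; duplicate spots of 1 sequence are not independent. In 4 of the 5 the outlying array was control 4: Sostdc1 in spot row 164 (ratio 0.927) and in row 111 (0.901), Clic6 (0.943) and Enpp2 (0.909). Since the genes were chosen on control 4, these ratios support nothing further. The fifth was the Kl spot in row 60 among the PNFLX arrays, with PNFLX 3 highest (0.881); that spot was not well above background on any PNFLX array, and its duplicate in row 100 did not pass. Ttr did not pass, as controls 1 to 3 were themselves spread from -4.10 to -0.44.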

How the results depend on the processing

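On 7 arrays, 0 choroid plexus probes were called in any alternative; over these, adjusted p-values ran from 0.322 to 0.997. The count over all probes, 33 with 24 higher and 9 lower, was 56 without scaling (48 higher, 8 lower; median of all probes at 0.20 instead of -0.03), 18 with normexp background correction, 17 with probes well above background on all 8 arrays, 17 with the brightest probe per gene, 10 after subtraction of row and column medians and 0 without the first and last 5 spot rows, where fewer probes were tested and 1080 had an unadjusted p under 0.05; leaving out single arrays gave 16 to 41, with 16 to 19 without PNFLX 2, PNFLX 4, control 1 or control 3. With 8 arrays the 78 (43 higher, 35 lower) became 143 (120 higher, 23 lower), 50, 47, 48, 23 and 0 in the same order (for the 0, 1261 had an unadjusted p under 0.05), 46 without the filter on dim probes and 33 to 104 with single arrays left out.

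Directions reversed on 7 arrays as follows. With normexp, Sostdc1 became -0.91 (row 164) and -0.82 (row 111), Ttr -0.17, Folr1 -0.60 and Enpp2 0.0099; without reversing, Ace moved to -0.75, -1.12 and -1.15 and Igf2 to 0.996. Without scaling, Enpp2 became 0.22 and Ace 0.12 (row 137), 0.081 (row 113) and 0.063 (row 20), with the median of all probes at 0.20. Sostdc1 in row 164 became -0.076 with quantile normalization and -0.013 after row and column medians, which also gave Enpp2 0.12 and Ace in row 137 0.055. The cause was not tested. Leaving out single arrays gave -0.29 to 0.39 and -0.21 to 0.52 for the Sostdc1 spots, -0.46 to 1.37 for Ttr, -0.17 to 0.60 for Igf2, -0.92 to 0.25 for Igfbp2 and -0.054 to 0.028 for Enpp2; the sign turned for Sostdc1, Ttr, Igf2 and Enpp2 without PNFLX 1, for Ttr also without control 1, for Sostdc1 in row 164 without control 2, for Enpp2 without control 3 or PNFLX 3 and for Igfbp2 without PNFLX 4.

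The median difference of the 14 probes on control 4, 1.81, was 0.98 with normexp, where Igfbp2 was at -0.12, and 1.39 to 1.83 otherwise. The median correlation of the member pairs without control 4, 0.15, was 0.15 to 0.47 with other processing and 0.02 to 0.44 with another array left out.

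Same-numbered control and PNFLX arrays correlated at 0.01 to 0.09 in their deviations, and differently numbered ones at -0.08 to 0.03. Whether the numbers mark a shared factor was not tested. A replicate block gave 13 calls with 8 arrays and 1 with 7, where it called 0 choroid plexus probes and turned Igfbp2 to 0.25.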

Other observations

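Outside the gene lists, and named after its values were seen, Cnmd, which encodes the cartilage protein chondromodulin, followed the same arrays as Ttr and Sostdc1. With dim spots raised to their arrays' lowest values well above background, its spot in row 106 was at least 4.92 log2 units above the median of the other arrays on control 4 and its spot in row 149 at least 4.71. The spot in row 106 read -7.74, -7.04, -4.81 and -1.35 on controls 1 to 4 and -2.72, -7.09, -3.87 and -6.87 on PNFLX 1 to 4, and was well above background on 4 arrays. PNFLX 1 was second for both spots. Ranks 8 to 12 of the differences on control 4 were spots in row 192, the last row of the array. For Nifk, Pdcd4, Gnl2 and Nckipsd these go with a gap between all controls and all PNFLX arrays. Nifk read -1.10 on control 4, -1.21 to -0.91 on the other controls and -5.63 to -5.04 on PNFLX. For the unnamed probe at rank 9, control 1 (-5.05) lay among the PNFLX arrays. Of the 19 endothelial and mural genes, 3 were at least 2-fold up on PNFLX 1, against 232 of all 9440. Among these 3 were Vwf (2.97-fold up) and Myh11 (2.35-fold up), named after their values were seen. The other was Emcn (2.14-fold up), with its spot in row 1 and well above background on 5 arrays. It was highest on PNFLX 2. Emcn read -5.34, -5.40, -4.96 and -4.74 on controls 1 to 4 and -3.64, -2.15, -2.39 and -3.09 on PNFLX 1 to 4.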
